A study of Homo sapiens with 4 samples.

Results

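The mRNAs described here are named for proteins of the mitochondrial ribosome. They were chosen by gene symbol alone, MRPL or MRPS followed by a number and at most 1 letter, which took 78 of the 14911 genes with counts in at least 1 of 4 libraries. Their counts were summed over the 164 member transcripts that had a count. Of the members 51 were listed with the large ribosomal subunit and 27 with the small subunit. The small-subunit list includes MRPS36, which is now assigned to the oxoglutarate dehydrogenase complex. Of the 78 members 47 averaged 50 counts or more per library, as did 5320 genes in all. Medians and numbers of members refer to these 47 unless said otherwise, and the other 31 are given by name.

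The libraries came from HEK293T cells, an established human embryonic kidney line, and all cells had been exposed to X-rays. Cells labelled shCTL carried a control short hairpin RNA (shRNA), and cells labelled shA5 carried an shRNA against ALKBH5, an enzyme that removes N6-methyladenosine (m6A) from RNA. According to the study's methods the shRNAs were delivered by lentivirus and the cells selected with puromycin, so shA5 is a knockdown population and not a knockout. From each group, poly(A) RNA was fragmented and sequenced as it was (input) and after immunoprecipitation of m6A-bearing fragments (m6A-IP). Each group has a single library, which leaves its differences from other groups without a replicate check, and no p-value was computed. Which ALKBH5 shRNA these libraries carried and when the cells were harvested are not given in the sources used here.

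For shCTL the input library totalled 2237819 counts and the m6A-IP library 3944402, and for shA5 the totals were 1311390 and 3148119. Where 4 counts of a gene are given in a row they follow this order. Levels are given as counts scaled to the library total (CPM). m6A enrichment is the log2 ratio of m6A-IP CPM to input CPM, with 0.5 CPM added to both, so that 0 means an equal share of each library. Brackets with 95% give counting intervals, which cover counting error only, since PCR copies are not independent molecules. Input counts of ALKBH5 were 486 for shCTL and 145 for shA5, or 217 and 111 CPM. Its m6A-IP counts were 1432 for shCTL and 589 for shA5. The targeted mRNA was therefore lower in both shA5 libraries, by 0.97 on the log2 scale in the input (95% -1.25 to -0.70), in the direction of the label. Of the marker genes for this cell line given here, LIN28B had 74, 68, 28 and 34 counts. PAX2, EYA1, NEFM and VIM had at most 8 counts in any library. PTPRC, CD3E, HBB, ALB, APOB, COL1A2 and DCN, markers of blood, liver and fibroblasts, had no count. By counting error alone this allows up to 1.34, 0.761, 2.29 and 0.953 CPM in these libraries. How the counting treated shared reads is not known, so these are not limits on the level of the mRNA.

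Mitochondria keep a small genome of their own that encodes core subunits of the respiratory chain and the RNAs of their ribosome. All proteins of that ribosome are encoded in the nucleus, translated in the cytosol and imported, so its assembly needs coordinated supply from many nuclear genes. Some have relatives in bacterial ribosomes and others arose only in the mitochondrial lineage. m6A is written on nuclear transcripts by the METTL3-METTL14 complex at a preferred context of a purine, a purine, then A, C and any base but G. It is commonest in long exons and near stop codons, and sparse close to splice junctions.

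The members at the ends of the enrichment order are shown first by the sequences around the m6A context GGACT, the letters most often quoted for methylated sites. Each line gives 25 bases of the sense strand, 5′ to 3′, from hg38, with the 5-base context in capitals and 10 bases on either side in lower case. The motif was searched on the sense strand of the counted transcript only. It was found in 76.6% of the 47 members and in 93.3% of the 5292 tested genes whose counted transcript is in Gencode release 44. A match describes the letters and not a measured methylation site. Shown are the 3 members with the highest mean enrichment, then MRPL41 with all its contexts, and then MRPL30 and MRPL23 from the low end.
MRPL12 3′ UTR: ccagctcggaGGACTtgtgttcagg
MRPL14 3′ UTR, site 1: tctggttgcaGGACTcgtgaatgga
MRPL14 3′ UTR, site 2: agttcatccaGGACTgtcaggccct
MRPS26 coding, site 1: aagcagcattGGACTcccggaagaa
MRPS26 coding, site 2: cacaacgcagGGACTcctaggggcc
MRPL41 coding, site 1: tccggggtgcGGACCgaatgagcaa
MRPL41 coding, site 2: ccatcgaaaaGGACTtcaaggacgg
MRPL41 coding, site 3: tctaccccagGAACTtcctgcgcta
MRPL30 coding: gttgccacaaGGACTtccagcagag
MRPL30 3′ UTR: gaattaataaGGACTagctttttga
MRPL23 coding: tcaagaagccGGACTacaaggtcgc

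The capitals in the line of MRPL12 (ENSG00000262814) lie in exon 5 of 5, at chr17:81707254-81707258 on the plus strand, 133 nt from the last junction. Those of MRPL14 (ENSG00000180992) lie in exon 3 of 3 on the minus strand, at chr6:44113814-44113818 and chr6:44113520-44113524, which are 394 and 688 nt from the last junction. The contexts of MRPS26 (ENSG00000125901) lie in exon 4 of 4 on the plus strand, at chr20:3047794-3047798 and chr20:3047860-3047864, 62 and 128 nt from the last junction. MRPL41 (ENSG00000182154) has 3 contexts of the general form in its whole transcript, 1 of them GGACT. They lie in exon 2 of 2 on the plus strand, at chr9:137552126-137552130, chr9:137552387-137552391 and chr9:137552480-137552484, which are 55, 316 and 409 nt from the junction. The counted transcript of MRPL30 (ENSG00000185414) has 67 contexts, 5 of them GGACT. The coding one shown is at chr2:99195598-99195602 and the last one in the 3′ UTR at chr2:99199202-99199206, both in exon 6 of 6 on the plus strand. These are 28 and 3632 nt from the last junction. The context of MRPL23 (ENSG00000214026) is in exon 4 of 5 at chr11:1952828-1952832 on the plus strand, 25 nt from a junction. The number of contexts thus did not order these members: MRPL41, with 3, stood high and MRPL30, with 67, stood last. Over all 47 members its Spearman correlation with enrichment was -0.14 in shCTL and -0.16 in shA5. For contexts near the stop codon and away from junctions it was 0.40 and 0.28, and over 5281 genes 0.24 in each group. The latter correlation was also computed where at least 80% of the transcript's bases lie in no other coding transcript. It was then 0.25 and 0.16 over 21 members, and 0.31 and 0.30 over 1863 genes. Whether it was higher in the members than in all genes thus depended on the genes used.

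The summed mRNA of the 78 members made up a nearly equal share of both inputs. Input counts were 12443 for shCTL and 7337 for shA5, which is 5560 and 5595 CPM. The log2 ratio of shA5 to shCTL was 0.01 (95% -0.03 to 0.05). The m6A-IP counts of the members were 19814 for shCTL and 15595 for shA5, or 5023 and 4954 CPM. Cells that make less of an RNA and a smaller number of cells that make it cannot be told apart in such bulk libraries.

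Levels between genes were compared per kb of the counted transcript in the shCTL input. MRPL41, a large-subunit protein particular to mitochondria, was highest with 313 CPM per kb (95% 284 to 345). MRPL38, also particular to mitochondria, followed with 299 (95% 280 to 319), and MRPS26 of the small subunit with 297 (95% 275 to 321). The intervals of these 3 overlap, so their order is not resolved. MRPS15, the small-subunit relative of bacterial S15, had 204 CPM per kb (95% 185 to 224). MRPL12, which forms the flexible stalk that receives translation factors, had 174 (95% 157 to 192). MRPL54 had 168, MRPL23 had 165 and MRPL14 had 153 CPM per kb, with intervals that overlap that of MRPL12. In the shA5 input, in the same order, the levels were 257, 318, 284, 231, 113, 163, 177 and 178 CPM per kb. MRPL38 then stood above MRPL41, with intervals that overlap (95% 292 to 345 and 222 to 295), so this order is not resolved either. MRPL12 fell to the last of these 8, and its interval (95% 95.9 to 133) lay under that of MRPL54 (95% 136 to 194).

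These levels come with a limit that can be read from the annotation. For each counted transcript, the share of its bases that lie in no other annotated coding transcript was computed (own bases). Over the 77 members with an annotated transcript, mean count and own bases had a Spearman correlation of 0.63, and over 14742 genes 0.24. A correlation across genes of the same libraries is a description, since genes are not independent. Of 24 members with at least 80% own bases 21 reached the minimum of 50 counts, and of 20 members under 10% only 5 did. Among all genes these shares were 53.4% and 21.7%. How the authors' counting treated reads that fit several transcripts is not given in the sources used here, and its part in the low counts was not tested. A low count of a member is therefore not read as a low level. Of the 8 members just named, MRPL12 has 30.5% and MRPL23 13.8% own bases, and the other 6 have at least 81.2%.

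**Figure D1:**
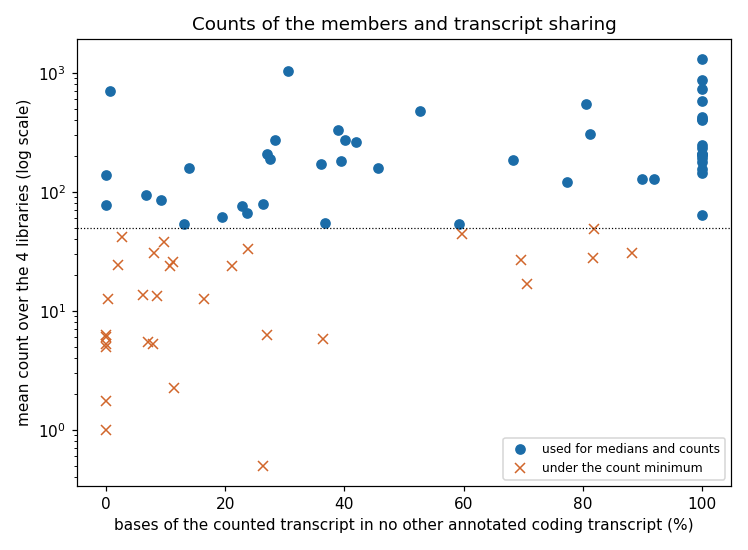
Mean count per library (log scale) of 77 members against the share of bases of the counted transcript that lie in no other annotated coding transcript. Circles are members that averaged 50 counts or more, crosses are members under that minimum, which is the dotted line. At the right edge nearly all points are circles.

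The 31 members under the minimum included proteins of both subunits. Just inside it were MRPL3 with a mean of 53.2 counts, MRPL13 with 53.5 and MRPL43 with 54.2, and just outside it MRPS6 with 48.5, MRPL35 with 44 and MRPL46 with 41.5. The mean was 38.2 for MRPL45, 33.2 for MRPL1, 30.5 each for MRPL34 and MRPL19, 28.0 for MRPS33, 26.5 for MRPL27 and 25.8 for MRPL10. It was 24.2 for MRPL28, 24.0 for MRPS24, 23.8 for MRPL33, 16.8 for MRPS17, 13.5 for MRPS35, 13.2 for MRPS12 and 12.5 each for MRPS28 and MRPL24. The 13 members under 10 were MRPS22 with 7.5, MRPS36 and MRPL11 with 6.2 each, MRPL22 with 6.0, MRPL48 with 5.8 and MRPS2 with 5.5, then MRPL47 and MRPS18C with 5.2 each, MRPL52 with 5.0, MRPL36 with 2.2, MRPL39 with 1.8, MRPS27 with 1.0 and MRPL42 with 0.50. Together these 31 held 632 of the 12443 member counts of shCTL input, so the 47 used members carried 94.9% of them. Summed, the 31 had a log2 ratio of m6A-IP to input of -0.76 in shCTL (95% -0.92 to -0.60) and -1.05 in shA5 (95% -1.24 to -0.86). The minimum is a mean that includes the m6A-IP libraries, so genes with few m6A-IP counts fall under it more readily. The side of 0 of this sum is thus partly set by the minimum. Over 9450 annotated genes under the minimum the median enrichment was -0.30 in shCTL and -0.19 in shA5. Over 30 annotated members under it the median was -0.64 and -1.02.

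Most members took a smaller share of the m6A-IP than of the input. In shCTL the median enrichment of the 47 members was -0.62 (95% order-statistic interval over members -0.75 to -0.41), and over all 5320 genes -0.11. In shA5 it was -0.72 (-0.87 to -0.24) for the members and -0.10 for all genes. With scaling by library totals enrichment was under 0 in both groups for 35 members, over 0 in both for 9, and on different sides for 3. The medians of all genes were under 0 as well, so in each group most of all genes lay there too. The share of all genes under 0 in both groups is not given here. At 1.5-fold, 24 of 47 members were depleted in shCTL, where 30.3% of all genes were, and 26 of 47 in shA5, where 31.7% of all genes were. That is 51.1% and 55.3% of the members. Only 4 members were enriched at 1.5-fold in shCTL, or 8.51%, where 22.5% of all genes were. The same 4 were enriched in shA5, where 24.3% of all genes were. Of the 24 members depleted in shCTL 21 were also depleted in shA5, or 87.5%, and of all genes depleted in shCTL 86.9% were. Of all genes enriched in shCTL 83.2% were enriched in shA5 too, so such overlap between the groups is not particular to the members.

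The zero of this scale depends on the scaling. With edgeR TMM factors over the 4 libraries the median of all genes moved up by 0.29 in shCTL and 0.33 in shA5, and with DESeq2 size factors by 0.30 and 0.32. The count of depleted against enriched members in shCTL was then 13 against 7 with TMM and 12 against 7 with DESeq2, in place of 24 against 4. Of all genes 20.5% were depleted and 33.4% enriched in shCTL with TMM, and 20.0% and 34.1% with DESeq2. In shA5 it was 16 against 9 and 16 against 8, in place of 26 against 4, where 21.3% of all genes were depleted and 36.8% enriched with TMM, and 21.7% and 36.1% with DESeq2. Measured from the median of all genes, the members' median lay at -0.50 in shCTL and -0.62 in shA5 with each of the 3 scalings. A scaling factor shifts all genes of a group nearly alike, so this distance was nearly fixed in advance. Its agreement over the scalings is therefore no check. Against the median of all genes 35 members lay below and 12 above in shCTL, and 31 below and 16 above in shA5. The values also differed by mean count, a measure that includes the m6A-IP counts, so that enriched genes are moved towards the class with more counts and the split is partly set by enrichment itself. The 25 members with a mean of 50 to 200 counts had a median of -0.82 in shCTL and 18 of them were depleted, or 72.0%, against 37.8% of all genes in that range. The 22 members with at least 200 counts had a median of -0.14 and 6 were depleted, or 27.3%, against 21.7% of all such genes, whose median was 0.12. With at least 200 counts the members' median thus stayed under that of all genes while lying closer to 0. In shA5 the median of these 22 members was -0.03 against 0.16 for all such genes, and that of the 25 members with fewer counts -0.80 against -0.29. For genes with at least 80% own bases the medians over 21 members and 1863 genes were -0.41 and 0.08 in shCTL, about as far apart as over all members and genes. In shA5 they were -0.07 and 0.13, which is closer.

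**Figure D2:**
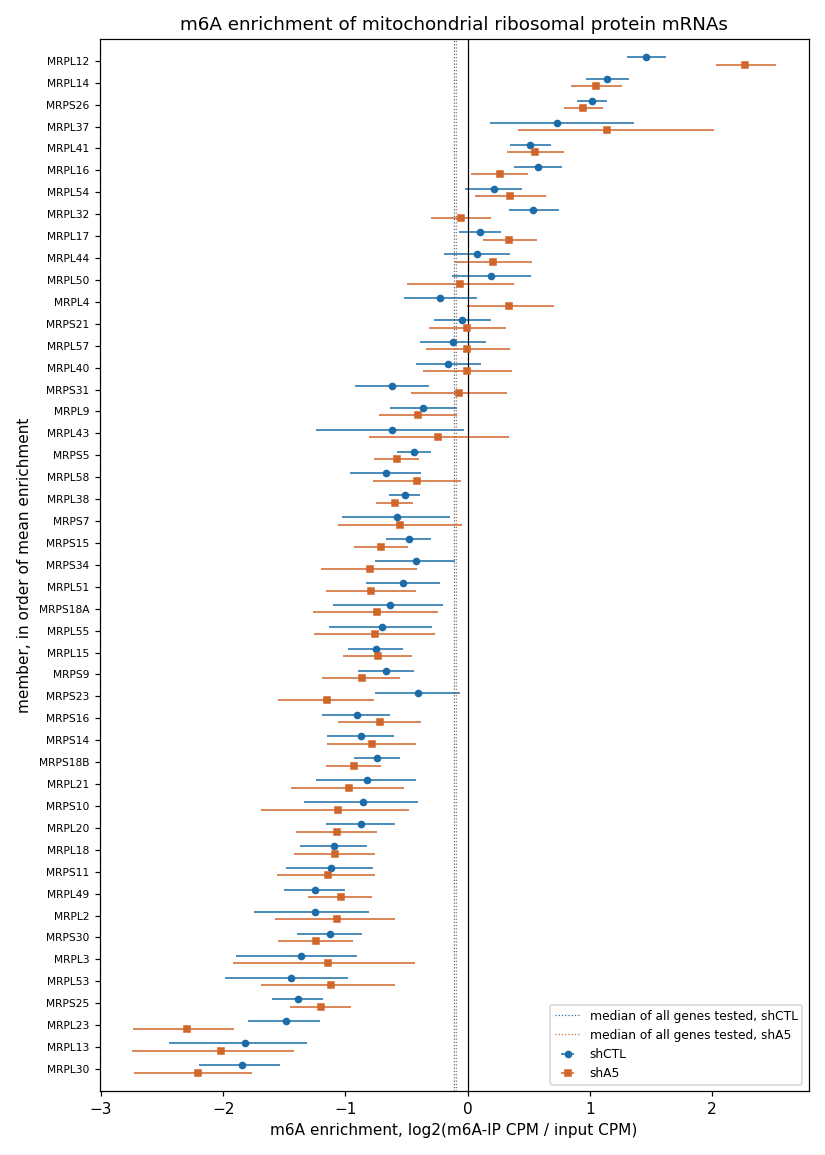
m6A enrichment of the 47 members (log2 ratio of m6A-IP to input CPM), ordered by the mean of shCTL (circles) and shA5 (squares), with 95% counting intervals. Dotted lines are the medians of all 5320 genes tested. MRPL12 stands at the top and MRPL30 at the bottom, and 35 members lie under 0 in both groups with scaling by library totals. The medians of all genes lie under 0 as well.

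The large-subunit proteins with relatives in bacteria spanned the whole range. Of this list 17 of 30 members were used, with a median enrichment of -0.75 in shCTL and -0.76 in shA5, 2 enriched and 10 depleted in each group, where 22.5% and 24.3% of all genes were enriched and 30.3% and 31.7% depleted. MRPL12 had the highest enrichment of all members. Its counts were 392 and 1903 for input and m6A-IP of shCTL, and 150 and 1742 for those of shA5. Its enrichment was 1.46 in shCTL (95% 1.30 to 1.62) and 2.27 in shA5 (95% 2.03 to 2.52), which is 2.75-fold and 4.82-fold. A further coding gene annotated on the same strand, ENSG00000262660, shares exon sequence with MRPL12, so reads from the shared bases cannot be told apart. MRPL14, which sits where the subunits meet, had 327, 1272, 223 and 1109 counts in the same order and an enrichment of 1.14 and 1.05. Its values in shCTL and shA5 thus lay within each other's intervals. MRPL16, the relative of bacterial L16, had 308, 808, 206 and 593 counts and an enrichment of 0.57 and 0.26. MRPL32, which the m-AAA protease trims before assembly, had 276, 706, 199 and 460 counts and an enrichment of 0.54 in shCTL and -0.05 in shA5.

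At the other end of this list stood MRPL30, MRPL13, MRPL23, MRPL3 and MRPL2. MRPL30 had 233, 113, 110 and 56 counts, an enrichment of -1.84 in shCTL (95% -2.20 to -1.53) and -2.21 in shA5 (95% -2.73 to -1.76), or 3.59-fold and 4.61-fold less in the m6A-IP. A same-strand coding gene, ENSG00000273155, shares exon sequence with it. MRPL13 had 85, 41, 56 and 32 counts, with -1.82 and -2.02. These members were low in the m6A-IP of both groups. MRPL23, whose bacterial relative lies at the exit of the peptide tunnel, had 249, 155, 156 and 75 counts, with -1.49 and -2.30. MRPL3 had 88, 59, 32 and 34 counts, with -1.37 and -1.14. MRPL2, the relative of a bacterial protein needed for peptide bond formation, had 92, 67, 69 and 78 counts, with -1.25 and -1.07. The lower counts of MRPL13, MRPL3 and MRPL2 give intervals about 1 unit wide or wider in shCTL.

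Of the 21 large-subunit proteins listed as particular to mitochondria 15 were used, with a median of -0.52 in shCTL and -0.24 in shA5, and 1 enriched and 6 depleted in each group. That is 40.0% depleted, nearer to the 30.3% and 31.7% of all genes, and 6.67% enriched, where 22.5% and 24.3% of all genes were. The list includes MRPS18A for its place, although its family has bacterial members. MRPS18A was among those depleted in each group. The enriched member was MRPL37, with 34, 101, 17 and 92 counts and an enrichment of 0.73 (95% 0.18 to 1.36) and 1.14 (95% 0.42 to 2.01). The minimum of 50 counts is a mean that includes the m6A-IP libraries, which favours enriched genes, and MRPL37 passed it only through its m6A-IP counts. Its low input counts also give it the widest intervals of the 4 enriched members, and SSBP3 lies antisense to its exons. MRPL41 had 408, 1026, 196 and 690 counts and an enrichment of 0.51 (95% 0.35 to 0.68) and 0.55 (95% 0.32 to 0.79). It is the member with 3 contexts in its sequence lines above, and its lower bounds are above 0 in both groups. MRPL54 had 228, 466, 130 and 397 counts, with 0.21 and 0.35. MRPL53 had 90, 57, 56 and 61 counts, with -1.45 and -1.12. MRPS30, which sits in the large subunit despite its name, had 262, 211, 178 and 180 counts, with -1.12 and -1.24. MRPL38, the member with the most counts in both inputs, had 908, 1119, 566 and 898 counts, with -0.52 (95% -0.64 to -0.39) and -0.60 (95% -0.75 to -0.44). For MRPL38 the shCTL value was thus short of the 1.5-fold threshold and the shA5 value past it, with intervals that overlap.

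The small subunit gave medians of the same sign. Its 10 used members with bacterial relatives, of 17, had a median of -0.70 in shCTL and -0.75 in shA5. Of these 6 and 7 were depleted, or 60.0% and 70.0% where 30.3% and 31.7% of all genes were. None was enriched, where 22.5% and 24.3% of all genes were. MRPS15 had 435, 549, 289 and 424 counts, with -0.48 and -0.71. Its 5 used members particular to mitochondria, of 10, had a median of -0.42 and -0.80, with 2 and 3 depleted and 1 enriched in each group, too few to set against the shares of all genes. That member, MRPS26, had 676, 2409, 379 and 1754 counts and an enrichment of 1.01 (95% 0.89 to 1.14) and 0.95 (95% 0.79 to 1.11). It is the member with the most counts in both m6A-IP libraries, where it took 12.2% and 11.2% of all member counts. MRPS25 had 483, 325, 257 and 268 counts, with -1.38 and -1.20, and its exons overlap those of NR2C2 on the other strand. Without the 4 enriched members, the sum of the other 74 had a log2 ratio of m6A-IP to input of -0.46 in shCTL and -0.53 in shA5, and with them -0.15 and -0.18. These 4 were left out because they were enriched, so the direction of that difference follows from the choice.

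The order of the members was much the same in both groups. Across the 47 members, enrichment in shCTL and in shA5 had a Pearson correlation of 0.93 and a Spearman correlation of 0.91, and across all 5320 genes Pearson's was 0.92. The pairs of libraries have no library in common, while every gene within a pair shares the same 2 libraries. The change of enrichment, shA5 minus shCTL, had a median of -0.03 over the members (-0.12 to 0.12) and 0.00 over all genes. It was positive in 23 members and negative in 24. The change of input RNA had a median of 0.09 (-0.07 to 0.17) against -0.02, and that of m6A-IP RNA 0.03 (-0.12 to 0.11) against -0.02. The members' medians of change thus lay close to those of all genes. Their intervals run over genes of the same 4 libraries and do not stand for replicates of a group.

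At 1.5-fold, 1 of 47 members had increased enrichment in shA5, or 2.13%, where 5.38% of all genes did, and 3 of 47 had decreased enrichment, or 6.38%, where 5.09% of all genes did. Higher input RNA in shA5 was seen for 1 member, MRPL43, where 3.44% of all genes had it. Lower input RNA was seen for 2, MRPL12 and MRPL3, where 6.43% of all genes had it. MRPL43 and MRPL3 were just inside the minimum mean count. MRPL43 passed it through its m6A-IP counts, most of all in shA5, and MRPL3 through its shCTL counts. These calls are therefore not independent of the minimum. Among genes with at least 80% own bases 2 of 21 members had decreased enrichment, where 3.49% of all such genes did. These are small counts, and no difference from all genes was tested. Input counts enter both the change of enrichment and the change of input RNA, so those changes are not separate measurements.

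MRPL12 was the member with increased enrichment and also had lower input RNA in shA5. Its input fell from 175 to 114 CPM, a log2 change of -0.61 (95% -0.90 to -0.34), and its m6A-IP went from 482 to 553 CPM, a log2 change of 0.20 (95% 0.10 to 0.29). The change of enrichment was 0.81 (95% 0.52 to 1.11). Most of it therefore came from the input side. With a trend on GC content removed, the input change of MRPL12 was -0.48, short of 1.5-fold. MRPL23 had the largest decrease, -0.81 (95% -1.33 to -0.31), with input of 111 and 119 CPM and m6A-IP of 39.3 and 23.8 CPM in shCTL and shA5. Here the m6A-IP moved and the input did not beyond its interval (95% -0.20 to 0.39). MRPS23 of the small subunit had 124, 164, 107 and 115 counts and a change of -0.74 (95% -1.27 to -0.22). Its input rose from 55.4 to 81.6 CPM, a log2 change of 0.55, and its m6A-IP was 41.6 and 36.5 CPM. For MRPL32 the change was -0.59 (95% -0.91 to -0.27), from input of 123 and 152 CPM and m6A-IP of 179 and 146 CPM, just past the threshold and just short of it with both other scalings, with a pseudocount of 2 CPM and with the GC trend removed. MRPL3, in the core of the large subunit, fell in the input from 39.3 to 24.4 CPM, a log2 change of -0.68 (95% -1.32 to -0.09), which rests on 88 and 32 counts. MRPL3 passed the minimum mean count only through its shCTL libraries, with 88 and 59 counts, against 32 and 34 in shA5. Its call of lower input RNA is therefore not independent of that minimum. MRPL43 had 45 and 40 input counts, 20.1 and 30.5 CPM, a log2 change of 0.59 whose interval holds 0 (95% -0.05 to 1.25). Under TMM scaling or with a pseudocount of 2 CPM this change was short of the threshold. Both input counts of MRPL43 lay under the minimum mean count. It passed through its m6A-IP counts, 51 in shCTL and 81 in shA5, the group where it was called higher. Exons of MRPL43 overlap those of TWNK and SEMA4G on the other strand, and whether the counting used strand is not given in the sources used here.

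**Figure D3:**
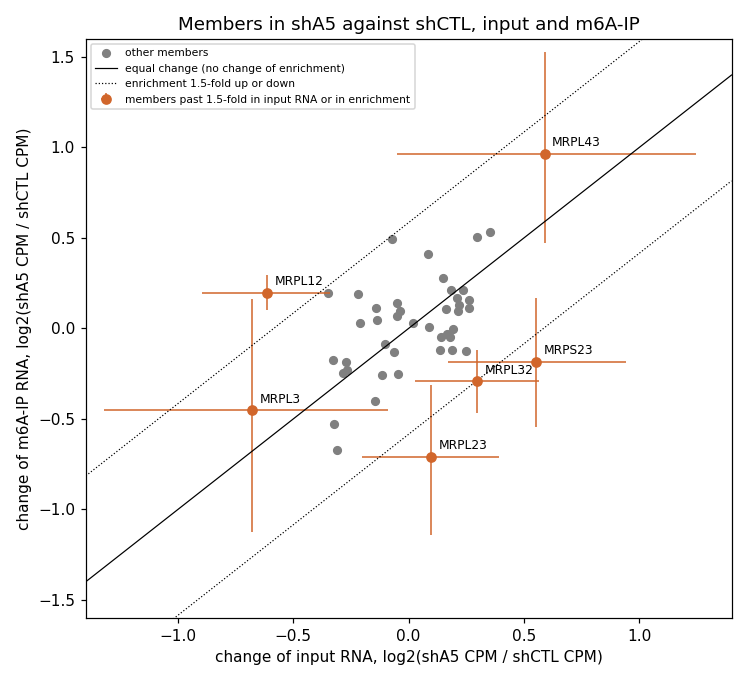
Change of m6A-IP RNA against change of input RNA in shA5 relative to shCTL (log2 ratios of CPM) for the 47 members. Orange points with 95% counting intervals are the 6 members past 1.5-fold in input RNA or enrichment, the solid line marks equal change and the dotted lines a 1.5-fold change of enrichment. MRPL12 lies above the upper dotted line, and MRPL23, MRPS23 and MRPL32 lie at or below the lower one.

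The counted transcripts of the members were shorter than those of all genes in the median, though not in each case, and not shorter than those of the lists nearest in kind. They had a median length of 1398 nt, against 3590 nt over 5292 tested genes, with 5 exons against 9 and a last exon of 629 nt against 1822 nt. MRPS23, with 5609 nt, MRPS25, with 4572 nt, and MRPL30, with 4435 nt, were longer than the median of all genes. The used cytosolic ribosomal proteins and oxidative phosphorylation genes both had a median of 1015 nt, with last exons of 231 and 319 nt. The median count of m6A contexts was 19 against 47 per transcript. Per kb the members had 14.3 and all genes 13.3 contexts, and within 200 nt of the stop codon both had 6. GC content was close too, with 50.4% and 51.4%. The 952 other genes between the members' length quartiles, 964 and 2063 nt, had a median enrichment of -0.12 in shCTL and -0.08 in shA5.

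The number of exons ran with enrichment most closely where transcripts share few bases. In genes with at least 80% own bases the Spearman correlation of exon number with enrichment in shCTL was -0.47 over 1863 genes and -0.59 over 21 members, and in shA5 -0.46 and -0.59. Over all 5292 genes and all 47 members, without that condition, it was -0.26 and -0.29 in shCTL. In those 1863 genes the median enrichment in shCTL was 1.08 with 1 exon, 0.77 with 2, 0.51 with 3, 0.06 with 4 to 5, -0.16 with 6 to 8 and -0.32 with 9 or more. No used member has a single-exon transcript. The 21 members had medians of 0.19 with 2 exons (3 members), 0.21 with 3 (5), -0.28 with 4 to 5 (6), -0.74 with 6 to 8 (5) and -0.59 with 9 or more (2), each under the median of all genes in its class. GC content had a correlation of 0.41 with enrichment over these 21 members and 0.42 over the 1863 genes. The points share the same libraries and the bins of the members are small. The part of exon number, GC content or length in the members' place was not tested further.

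**Figure D4:**
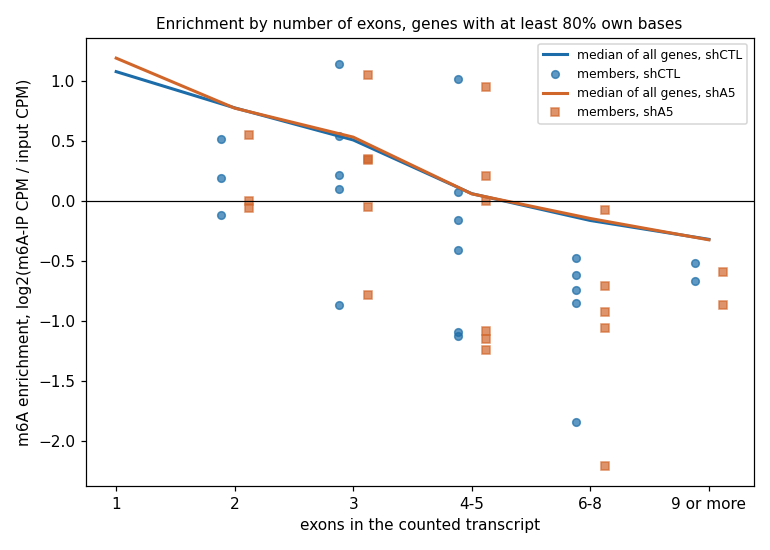
m6A enrichment (log2 ratio of m6A-IP to input CPM) by the number of exons of the counted transcript, for genes with at least 80% own bases. Lines are medians of all 1863 such genes and points are the 21 members, in shCTL (blue circles) and shA5 (orange squares). The medians fall from 1.08 with 1 exon to -0.32 with 9 or more in shCTL.

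Counts of a member's transcripts could differ. MRPL21, picked here after its values were seen, had 83, 40, 48 and 24 counts on ENST00000362034 and 21, 64, 26 and 66 on ENST00000567045. Enrichment in shCTL was -1.82 (95% -2.45 to -1.31) on the former and 0.76 (95% 0.06 to 1.58) on the latter, and in shA5 -2.19 and 0.08. Only 6.64% of the bases of its counted transcript lie in no other coding transcript, so the split of counts between these transcripts rests on the unknown treatment of shared reads. MRPL20, picked in the same way, had -0.72 on ENST00000344843 and -1.32 on ENST00000482352 in shCTL, and -0.88 and -1.44 in shA5, so these values lay on the same side of 0. Copies are a further limit, since 23 of the 47 members have a pseudogene named after them in the annotation, and exons of 10 overlap those of another coding gene.

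The same values were computed for other lists of genes of the cytosolic ribosome and of mitochondrial gene expression. The 62 used cytosolic ribosomal protein mRNAs had a median enrichment of -1.34 in shCTL and -1.51 in shA5. Of them 52, or 83.9%, were depleted in each group, where 30.3% and 31.7% of all genes were. Their RPS4X, RPL7A and RPL10A had the most counts, with -2.05, 0.24 and -1.65 in shCTL. The 41 used nuclear mRNAs for oxidative phosphorylation, which the products of the mitochondrial ribosome join in the same complexes, had -0.93 and -0.99. Of these 27 and 26 were depleted, or 65.9% and 63.4%. ATP5F1B, COX6A1 and UQCRC1 led them in counts, with -1.74, 0.25 and -0.93. The interval of the cytosolic list in shCTL (-1.72 to -1.09) lay under the members' -0.62, and that of the oxidative phosphorylation list (-1.30 to -0.54) holds it. The 18 used assembly factors had -0.10 and -0.19, with intervals that hold the members' medians (-0.65 to 0.69 and -0.81 to 0.87), and TRUB2, MTG2 and NGRN at 0.47, 0.69 and 0.79. The 7 used translation factors had -0.86 and -1.14, with TUFM, LRPPRC and TACO1 at -0.39, -1.68 and 0.43. The 10 used mitochondrial aminoacyl-tRNA synthetases had -0.24 and -0.71, with AARS2, IARS2 and MARS2 at 0.51, -1.72 and 0.86. The 3 used ribosome subunits under other names, GADD45GIP1, PTCD3 and AURKAIP1, were at 0.19, -1.09 and -0.19. The 7 mitochondrially encoded mRNAs with counts had a median of -0.71 and -0.98, with MT-CO1, MT-CO2 and MT-ATP6 at -1.53, -0.89 and -0.52. They are transcribed inside the organelle, where the ribosome of the members translates them.

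Genes of these lists were also called at 1.5-fold between shA5 and shCTL. Among the cytosolic ribosomal proteins RPL3 had increased enrichment and RPL21, RPL37A, RPL4, RPS7 and RPSA decreased, while input RNA was higher for RPL23, RPL37A and RPS7 and lower for RPL3. Among the oxidative phosphorylation genes ATP5F1D, ATP5PD and NDUFA9 had increased and COX4I1 decreased enrichment, with input RNA higher for COX4I1 and lower for NDUFA4. OXA1L had lower input RNA (-0.79) and YARS2 decreased enrichment (-0.63), and no assembly factor was past 1.5-fold in either measure. For enrichment, up and down together, these are 6 of 62 cytosolic ribosomal proteins, 4 of 41 oxidative phosphorylation genes and 4 of 47 members. Of all genes 5.38% were called up and 5.09% down. The cytosolic list had 1.61% up and 8.06% down, the oxidative phosphorylation list 7.32% and 2.44%, and the members 2.13% and 6.38%. The median change of enrichment was -0.14 over the cytosolic list (-0.26 to -0.06) and 0.00 over all genes. No difference from all genes was tested. Calls for a change of enrichment are 0 of 7 translation factors, 1 of 10 synthetases and 0 of 18 assembly factors, lists too small to set against the shares of all genes. Of all genes 3.44% had higher and 6.43% lower input RNA in shA5. Of the 62 cytosolic ribosomal proteins 4.84% had higher and 1.61% lower input RNA. Of the 41 oxidative phosphorylation genes 2.44% had higher and 2.44% lower input RNA. OXA1L comes from a list of 7, too small for such shares.

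**Figure D5:**
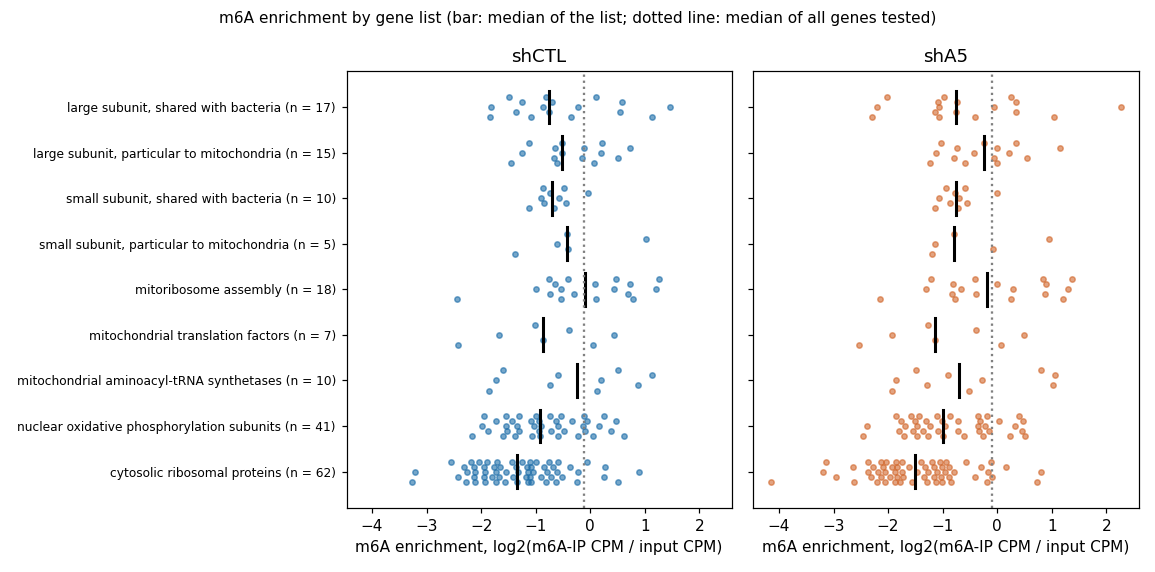
m6A enrichment (log2 ratio of m6A-IP to input CPM) of single genes by list in shCTL (left) and shA5 (right). Black bars are list medians and the dotted line is the median of all 5320 genes tested. The medians of the 4 lists of members lie above those of the cytosolic ribosomal proteins, -1.34 and -1.51.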

How the data were processed

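The deposited tables, 1 per library, hold the authors' counts of reads per Ensembl transcript as whole numbers. Per the submitters' notes and the study's methods, reads were made with bcl2fastq 2.0, processed with fastp 0.23.2, aligned to hg38 with HISAT2 and sorted with SAMtools 1.9, with StringTie named for quantification and MACS2 for peaks, which were not analysed here. The program behind the counts, its annotation release and its use of strand are not given in the sources used here.

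Counts were summed per gene symbol (28413 transcripts, 98.1% of them in Gencode release 44) and divided by the library total. Genes averaging 50 counts or more were used. A gene counts as called at 1.5-fold. Intervals are exact at 95%, Clopper-Pearson for ratios and a conditional odds ratio where ratios are compared. The counted transcript of a gene is the one with the most counts.

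Named were ALKBH5, the 8 members with the highest shCTL input CPM per kb, the 8 highest and 8 lowest by mean enrichment, members called for a change, members under the minimum, and of each other list the 3 genes with the most counts and those called for a change. Members and lists were chosen with earlier results of these data known. The lists were the 4 subunit lists, subunits under other names, assembly factors, translation factors, aminoacyl-tRNA synthetases, mitochondrially encoded mRNAs, cytosolic ribosomal proteins and oxidative phosphorylation subunits.

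The alternatives were edgeR TMM factors, DESeq2 size factors, pseudocounts of 0.1 and 2 CPM, minimum means of 10 and 200 counts and no minimum, only the transcript with the most counts, a lowess trend on GC content removed (span 0.3), a 2-fold threshold and, chosen after seeing the data, only genes with at least 80% own bases. The steps were tested on simulated data. Scaling factors came from edgeR 4.0.16 and DESeq2 1.42.0 under R 4.3.3. The other steps ran under Python 3.11.15 with pandas 2.3.3 and numpy 2.4.6 for tables, scipy 1.17.1 for intervals, statsmodels 0.14.6 for the lowess trend and matplotlib 3.10.9 for figures.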

Additional observations from a re-analysis of the deposited data

Results flagged for a closer look

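For 3 members the m6A-IP lay on opposite sides of the input in the 2 groups. The share of all genes that did so is not given here. MRPL32 had an enrichment of 0.54 in shCTL (95% 0.33 to 0.74) and -0.05 in shA5 (95% -0.30 to 0.19), a difference of -0.59. MRPL4 had -0.22 in shCTL (95% -0.52 to 0.07) and 0.34 in shA5 (95% -0.01 to 0.71), a difference of 0.57 (95% 0.10 to 1.04). Of its transcripts, ENST00000393733 had -0.23 and 0.71 and ENST00000590669 -0.41 and -0.04, so the opposite sides rest on the former, and 27.5% of the bases of the counted transcript lie in no other coding transcript. MRPL50 had 0.19 in shCTL (95% -0.13 to 0.52) and -0.06 in shA5 (95% -0.50 to 0.38), a difference of -0.26 whose interval holds 0 (95% -0.81 to 0.30). Of these enrichment values only that of MRPL32 in shCTL has an interval that does not hold 0, so the opposite sides are not resolved. MRPL4 and MRPL50 are named after their values were seen. With 1 library per group these differences were not tested. With TMM factors all 6 values lay above 0, as with DESeq2 size factors. Against the median of all genes, MRPL4 lay on opposite sides with each of the 3 scalings, at -0.11 in shCTL and 0.44 in shA5, and MRPL32 and MRPL50 lay above it in both groups. The 3 scalings shift all genes of a group nearly alike, so their agreement here was nearly fixed in advance.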

How the results depend on the processing

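No paired analysis was possible because shCTL and shA5 had no replicate libraries to pair, and the input and m6A-IP pairs, 1 from each, are not replicates of each other. Of 191 alternative values, 141 stayed within 1.5 times a count or within the interval of a value, 50 moved further and none changed the sign of a called value. Of 59 alternative values of the single members with a change, 19 come from settings that only choose genes and cannot alter them. The other 40 kept their direction and stayed within their counting intervals, 3 of them equal to the reported value because a single transcript was counted. The medians of the changes stayed within their order-statistic intervals, although the median change of input RNA ran from -0.04 to 0.13 and that of m6A-IP RNA from -0.05 to 0.04, which includes both signs. The cause was not tested for any value below.

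With TMM factors 7 members were enriched in shCTL and 9 in shA5, 13 were depleted in shCTL and 16 in shA5, 0 had higher input RNA (3.29% of all genes) and the median enrichment in shCTL was -0.33. With DESeq2 size factors these were 7 and 8 enriched, 12 and 16 depleted, and a median of -0.31. With a pseudocount of 2 CPM 0 members had higher input RNA, where 3.18% of all genes did. With a mean of at least 10 counts (65 members) 40 were depleted in shA5, 3 had increased and 13 decreased enrichment and 5 had higher input RNA, where 37.8%, 12.6%, 13.0% and 9.32% of all genes did. With a mean of at least 200 counts (22 members) 6 were depleted in shCTL and 8 in shA5, 1 had decreased enrichment, 0 higher and 1 lower input RNA, and the median enrichment was -0.14 in shCTL and -0.0287 in shA5. Of all genes with that mean 21.7% and 23.7% were depleted, 1.08% had decreased enrichment, 1.08% higher and 3.33% lower input RNA, and the medians were 0.12 and 0.16. With no filter (78 members) 7 and 9 were enriched, 41 and 46 depleted, 10 had increased and 15 decreased enrichment, and 7 had higher and 11 lower input RNA. Of all genes with no filter 21.6% and 24.5% were enriched and 36.7% and 37.5% depleted. Among them 22.7% had increased and 21.4% decreased enrichment, and 15.3% had higher and 19.9% lower input RNA.

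With only the transcript with the most counts (43 members) 2 had increased enrichment, 0 higher and 1 lower input RNA, where 5.58%, 3.44% and 7.04% of all genes did. With the GC trend removed 2 had increased enrichment and 1 lower input RNA, where 5.25% and 5.80% of all genes did, and the input change of MRPL12 was -0.48. At 2-fold 11 members were depleted in shCTL and 14 in shA5, and 0 had increased enrichment, 0 decreased enrichment, 0 higher and 0 lower input RNA. Of all genes 16.9% and 18.4% were depleted at 2-fold, and 0.846%, 0.771%, 0.470% and 1.15% had these changes. With at least 80% own bases, chosen after seeing the data (21 members), 2 and 2 were enriched, 8 and 10 depleted, 0 had increased and 2 decreased enrichment, 0 higher and 0 lower input RNA, and the median enrichment in shA5 was -0.0747. Of all genes with that share of own bases 30.4% and 32.4% were enriched, 26.1% and 27.6% depleted, 4.24% had increased and 3.49% decreased enrichment, 2.52% higher and 6.87% lower input RNA, and the median in shA5 was 0.13. In shCTL the medians were -0.41 for the members and 0.08 for all such genes.

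Of the 4 libraries the shA5 input was the shallowest, with 1311390 counts and a median of 115 counts per used member.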
